A study of Mus musculus with 18 samples.

Results

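Liver RNA of 18 male ICR mice, an outbred stock, was examined for 7 genes that sense foreign chemicals or equip the cytochrome P450 enzymes that oxidize them. These were the receptors Nr1i2 (the pregnane X receptor, PXR), Nr1i3 (the constitutive androstane receptor, CAR) and Ahr (the aryl hydrocarbon receptor), the Ahr partner Arnt, the P450 enzyme Cyp1a2, the electron donor Por and the heme synthesis enzyme Alas1. The genes were picked by symbol from the 19057 lines of the expression table, and all 7 were among the 10507 genes abundant enough to test. The liver data were collected to ask how transplanted gut microbiota acts on livers harmed by a high-fat diet (HFD), within a wider study of male fertility.

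Each of the 6 groups held 3 livers, all from mice 10 weeks old. Con mice ate the regular diet and HFD mice the high-fat diet, both with saline. Con-FMT mice ate the HFD and received, by mouth, microbiota of control donors, and A10-FMT mice ate the HFD and received microbiota of donors that had been dosed with alginate oligosaccharide (AOS) at 10 mg/kg. The donor material of each kind was pooled, so the 3 livers of a transplant group share an inoculum. AOS mice received AOS at 10 mg/kg on the regular diet and HFD+AOS mice on the HFD by their labels, and the route and length of that dosing are not given in the sources used here. No source ties a library to a cage or a day of collection, so p values measure the spread between these livers alone.

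Expression was deposited as RPKM, read numbers divided by gene length and library size, so levels can be set side by side between genes. RPKM does not keep the number of reads, and the absolute depth is unknown. Sums per library ran from 692303 to 806937 RPKM, with 14512 to 14982 genes above 0. On 112 genes with few reads, the RPKM that a single read was worth stayed between 0.982 and 1.01 times its typical size. These genes were kept because their values lay near small whole multiples of their smallest value. That choice itself favours steps of equal size, so the range does not show that depth was even.

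2 libraries stood apart. For 98.0% of the 148 genes that differed at least 1 log2 unit between the first and second Con livers, the third Con liver lay between them, and a weighted mean of the others matched it with a median absolute difference of 0.0665 log2. The third AOS liver lay between its group's other livers for 96.5% of 142 genes, with a median absolute difference of 0.083. In the 12 libraries of the other 4 groups these values were 58.1% to 76.8% and 0.341 to 0.590. Whether these libraries came from separate mice was not tested. Calls known to be lost when both were left out are marked, but not every call was followed. Among others, the F calls of CAR and PXR target genes and the call of Hnf4a carry no such check. A call without a mark is thus not shown to be kept.

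CAR and PXR are nuclear receptors that hepatocytes use to raise drug oxidation, conjugation and export when a foreign compound arrives, and both pair with the retinoid X receptor on DNA. Ahr waits in the cytoplasm with the chaperone Hsp90, moves to the nucleus when a ligand binds, pairs with Arnt and turns on the Cyp1 genes at sites with a GCGTG core. A P450 enzyme can work only with a heme group, whose synthesis begins with the reaction of Alas1, and with electrons from NADPH, which Por hands over at the endoplasmic reticulum. In rodent liver several of these genes follow the daily clock through Dbp, Tef and Hlf, the PAR bZIP transcription factors.

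By GRCm38 with the GENCODE M21 annotation, the genes lie on 6 chromosomes. Nr1i3 occupies chr1:171213970-171220701 (plus strand), Arnt chr3:95434388-95497240 (plus), Por chr5:135670033-135735326 (plus), Cyp1a2 chr9:57676937-57683703 (minus), Alas1 chr9:106233455-106248654 (minus), Ahr chr12:35497974-35535038 (minus) and Nr1i2 chr16:38248323-38294824 (minus). Of the 4414 exonic bases of Nr1i3, 3304 also belong to exons of Tomm40l on the opposite strand. The strand setting of the counting is not given in the sources used here, so reads of this overlap could have counted for either gene.

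Promoters are printed for the 3 genes called between groups: Nr1i3 and Por changed in the same comparison, and Cyp1a2 is the classical Ahr target of the set. RefSeq (GRCm38.p6) gave a window of 250 bases before and 50 bases after the start for 6 of the 7 genes, with 2 windows for Alas1. The 250 bases before the start are printed 5′ to 3′ on the strand of the gene. The Por window lies inside the gene span given above, which begins at 135670033, so it precedes an internal start. Capitals mark an Ahr core on either strand in Por, an E-box in Nr1i3 and a TATA box in Cyp1a2.
Nr1i3, chr1:171213720-171213969: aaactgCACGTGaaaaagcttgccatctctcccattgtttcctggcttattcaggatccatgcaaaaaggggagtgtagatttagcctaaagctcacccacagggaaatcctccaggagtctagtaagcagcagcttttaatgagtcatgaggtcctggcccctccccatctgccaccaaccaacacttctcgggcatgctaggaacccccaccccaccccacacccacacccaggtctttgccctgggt
Por, chr5:135688895-135689144: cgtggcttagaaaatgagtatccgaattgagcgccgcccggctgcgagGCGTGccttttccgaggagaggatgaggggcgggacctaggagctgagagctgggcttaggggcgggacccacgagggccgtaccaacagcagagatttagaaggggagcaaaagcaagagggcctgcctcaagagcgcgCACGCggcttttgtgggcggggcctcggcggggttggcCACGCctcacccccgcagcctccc
Cyp1a2, chr9:57683656-57683905: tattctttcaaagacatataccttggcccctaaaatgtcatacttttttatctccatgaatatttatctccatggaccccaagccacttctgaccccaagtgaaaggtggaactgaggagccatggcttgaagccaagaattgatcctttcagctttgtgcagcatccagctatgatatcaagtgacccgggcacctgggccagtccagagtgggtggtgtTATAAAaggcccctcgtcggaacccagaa

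The printed Por sequence, before its internal start, was GC rich, with 65.6% G or C and 21 CpG pairs in its 250 bases, whereas those of Nr1i3 (53.2%, 2 CpG pairs) and Cyp1a2 (47.2%, 3 CpG pairs) were not. Over the full windows and on both strands, the GCGTG core was found for 3 of the 6 genes with a window, Arnt, Por and Alas1, whose 2 windows overlap and share the site, against 32.4% of the 32851 windows of all genes and 50.1% of those of the genes tested. Cyp1a2 held none within this window. The E-box CACGTG stood at position −244 from the start of Nr1i3, and in 7.15% of all windows. A TATAAA box, searched on the strand of the gene, stood at position −29 from the start of Cyp1a2, and in 8.32% of all windows. The AGGTCA element of nuclear receptors (16.3% of all windows) and the D-box words TTACGTAA, TTATGTAA and TTATGCAA of the PAR bZIP factors (1.78%) were searched on both strands and found in no window of these genes. A match is a matter of letters alone and not a bound site.

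Across the 18 livers, Cyp1a2 was the most abundant of the genes (median 327 RPKM), followed by Nr1i3 (64.0), Alas1 (57.3), Por (45.9), Nr1i2 (25.1), Arnt (7.69) and Ahr (4.17). They differed as widely in steadiness. The SD of log2(RPKM + 1) within groups was 0.93 for Alas1, 0.41 for Por and 0.36 for Nr1i3, above 99.6%, 96.3% and 94.9% of the genes tested, whose median was 0.134. For Arnt, Cyp1a2 and Nr1i2 it was 0.12, 0.12 and 0.14, near that median, and for Ahr it was 0.22.

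**Figure D1:**
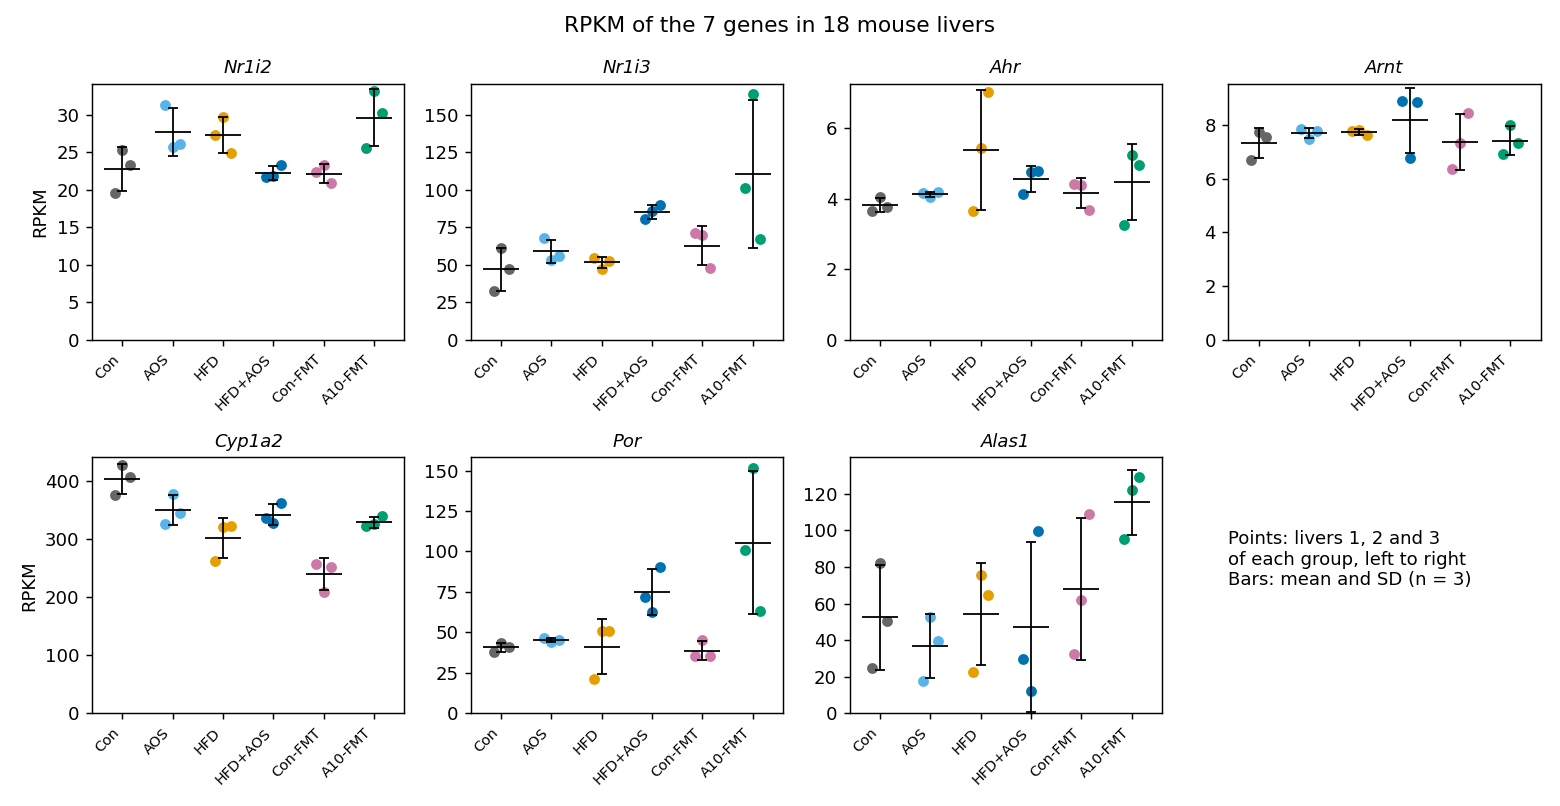
RPKM (vertical axes, each from 0) of the 7 genes in the livers of the 6 groups. Points are livers and bars the mean and SD of 3. The A10-FMT livers hold the highest values of Nr1i3 (164), Por (152) and Alas1 (129), Cyp1a2 is lowest in Con-FMT, and Ahr and Arnt overlap in all 6 comparisons made.

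Groups were compared on log2(RPKM + 1) with limma over all 10507 genes, two-sided, with Benjamini-Hochberg adjustment, and a gene was called at an adjusted p under 0.05. The added 1 makes a change of a low gene look smaller than it was. A10-FMT against HFD called 2 of the 7 genes, Nr1i3 and Por, both higher, where 6.60% of all genes were called. A10-FMT against Con-FMT also called 2, Por and Cyp1a2, both higher, where 1.68% of all genes were called. None of the 7 was called in HFD against Con (0.381% of all genes called), AOS against Con (0.133%), HFD+AOS against HFD (8.75%) or Con-FMT against HFD (0.00952%). At an unadjusted p under 0.05 these 4 comparisons held 3, 1, 3 and 2 of the 7, where 15.4%, 15.5%, 26.2% and 6.63% of all genes passed. The AOS effect on the HFD minus that on the regular diet was called for none of the 7 (0.504% of all genes), with 2 at an unadjusted p under 0.05, where 14.7% of all genes passed. An F test over the 6 groups called 4, Nr1i2, Nr1i3, Cyp1a2 and Por, where it called 14.8% of all genes. Several of these comparisons share the HFD or Con-FMT livers.

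**Figure D2:**
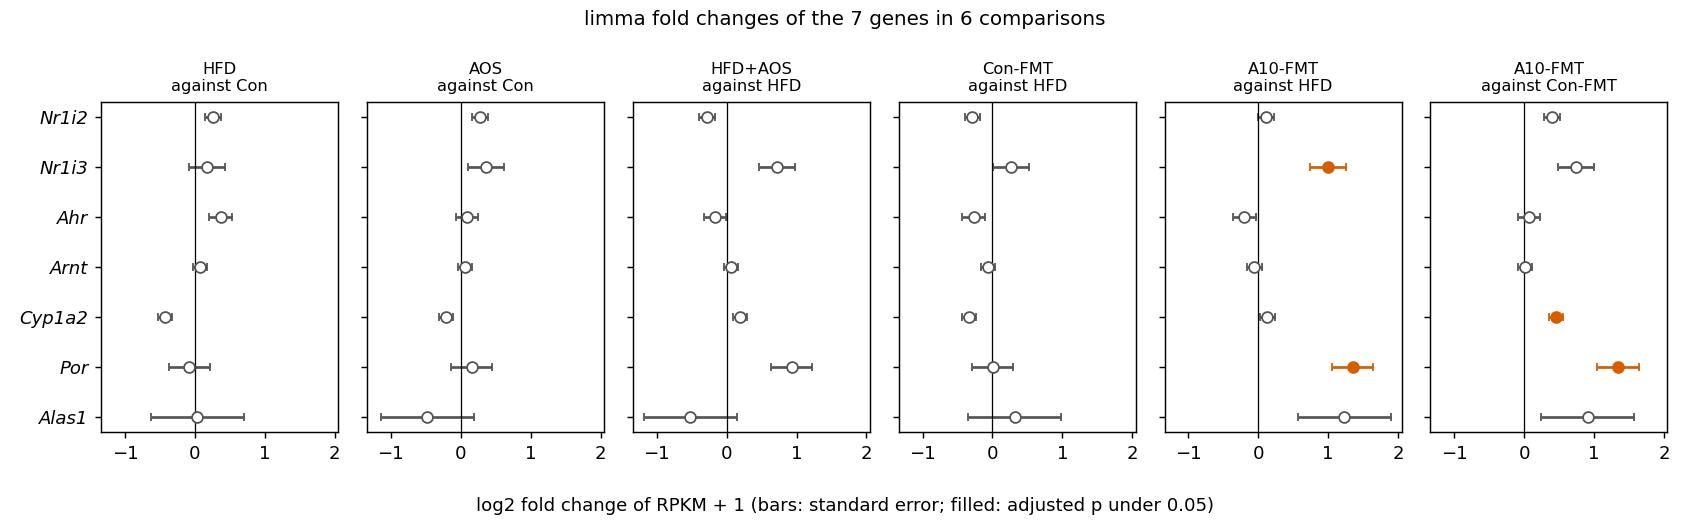
Difference of log2(RPKM + 1) between groups (horizontal axis) for each of the 7 genes in 6 comparisons, with limma standard errors as bars. Filled points passed an adjusted p of 0.05: Nr1i3 (1.00) and Por (1.35) in A10-FMT against HFD, and Cyp1a2 (0.46) and Por (1.34) in A10-FMT against Con-FMT.

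Nr1i3, which encodes CAR, was highest in the livers of mice given the microbiota of AOS donors. Its RPKM was 101, 164 and 66.8 in A10-FMT, and 80.5, 85.7 and 89.9 in HFD+AOS. In the other HFD groups it was 54.5, 47.3 and 52.4 (HFD) and 71.1, 69.4 and 47.5 (Con-FMT). On the regular diet it was 32.3, 61.1 and 47.3 (Con) and 67.5, 53.3 and 55.7 (AOS). Every A10-FMT and every HFD+AOS liver lay above every HFD liver, while A10-FMT overlapped Con-FMT through the A10-FMT liver at 66.8. From the lowest group mean to the highest the order was Con, HFD, AOS, Con-FMT, HFD+AOS and A10-FMT, and among neighbours in that order Con-FMT and HFD+AOS alone did not overlap.

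Nr1i3 rose by 1.00 log2 (SE 0.26) in A10-FMT against HFD, with an adjusted p of 0.0319 by limma. The mean RPKM was 111 ± 49.4 (SD, n = 3) against 51.4 ± 3.72, and the fold on RPKM + 1 was 2.00. In bulk RNA, more cells of a type and more RNA per cell cannot be told apart. The difference was positive in all 13 alternatives, and past the threshold in 6 of them, with differences from 0.67 to 1.31 and adjusted p values from 0.00323 to 0.160. The call was lost without a filter, with both groups fitted alone, without HFD liver 2 or 3, without A10-FMT liver 1 or 2, and with the third Con and AOS libraries left out (adjusted p 0.0627). In HFD+AOS against HFD, Nr1i3 differed by 0.72 (SE 0.26), with an adjusted p of 0.0947, and in A10-FMT against Con-FMT by 0.74, with an adjusted p of 0.173. Neither difference passed the threshold. The gene whose RPKM was most like that of Nr1i3 over the 18 livers was Tomm40l, with which it shares exonic bases (Pearson's r 0.94, Spearman's rho 0.87). Tomm40l ran from 9.42 to 30.5 RPKM, and the share of either gene's reads that came from the other was not tested.

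Nr1i2, which encodes PXR, varied over a narrow range, from 19.5 to 33.1 RPKM. It was 25.5, 33.1 and 30.2 in A10-FMT and 22.4, 23.2 and 20.8 in Con-FMT, so that the groups did not overlap. The values were 27.3, 29.6 and 24.8 in HFD and 21.7, 21.8 and 23.3 in HFD+AOS, with every HFD+AOS liver below every HFD liver. On the regular diet the order was the other way round, with 19.5, 25.3 and 23.3 in Con and 31.3, 25.6 and 26.1 in AOS. Nr1i2 was called by the F test (adjusted p 0.0422) but in no pairwise comparison. The nearest was A10-FMT against Con-FMT, with a difference of 0.40 log2 (SE 0.11) and an adjusted p of 0.0860 by limma. Over 13 alternatives this adjusted p ran from 0.0298 to 0.345, and it passed the threshold in 1, with library medians set equal. The AOS effect was 0.27 on the regular diet and −0.28 on the HFD, and the difference of these effects was −0.55 (SE 0.16), with an unadjusted p of 0.00286 and an adjusted p of 0.135. It thus missed the threshold after adjustment, although the AOS livers lay above Con and the HFD+AOS livers below HFD. Neighbours in the order of the means (Con-FMT, HFD+AOS, Con, HFD, AOS, A10-FMT) all overlapped. The F call was kept in 6 of 24 alternatives and was lost with the third Con and AOS libraries left out (adjusted p 0.111).

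Ahr was the least abundant of the 7 genes, from 3.25 to 7.04 RPKM, and was called in no comparison. It was 3.65, 4.05 and 3.76 in Con and 3.64, 5.44 and 7.04 in HFD, where liver 3 held the highest value of all 18. The other groups held 4.15, 4.05 and 4.18 in AOS, 4.12, 4.76 and 4.78 in HFD+AOS, 4.43, 4.39 and 3.67 in Con-FMT and 3.25, 5.24 and 4.96 in A10-FMT, the last with the lowest value. HFD exceeded Con by 0.37 log2 (SE 0.16), with an unadjusted p of 0.0371 and an adjusted p of 0.289 by limma, and the 2 groups overlapped.

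Arnt, the DNA-binding partner of Ahr, had the narrowest range of the set. It ran from 6.35 to 8.90 RPKM, 1.40-fold from the lowest liver to the highest, and each pair of groups compared overlapped. Arnt was 6.70, 7.75 and 7.55 in Con, 7.84, 7.49 and 7.77 in AOS and 7.76, 7.82 and 7.62 in HFD. It was 8.90, 6.76 and 8.85 in HFD+AOS, 6.35, 7.34 and 8.44 in Con-FMT and 6.93, 8.01 and 7.32 in A10-FMT. All 6 differences lay between −0.07 and 0.07 log2 (SE 0.10), and the smallest adjusted p among them was 0.747. The related Arnt2 was at or under 0.01 RPKM in each liver.

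Cyp1a2 oxidizes caffeine and other aromatic compounds and is made in the pericentral hepatocytes. Its mean was highest in Con, with 376, 428 and 407 RPKM, and lowest in Con-FMT, with 258, 208 and 253. It was 262, 321 and 322 in HFD and 322, 325 and 339 in A10-FMT, the tightest group. The values were 327, 378 and 345 in AOS and 336, 328 and 363 in HFD+AOS. HFD livers lay below every Con liver and above every Con-FMT liver, and A10-FMT livers lay above every Con-FMT liver. From the lowest mean the order was Con-FMT, HFD, A10-FMT, HFD+AOS, AOS and Con, and Con-FMT and HFD were the only neighbours apart.

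Cyp1a2 rose by 0.46 log2 (SE 0.10) in A10-FMT against Con-FMT, with an adjusted p of 0.0322 by limma, the means being 329 ± 9.29 and 240 ± 27.1 RPKM (SD, n = 3). The call was kept in 6 of 13 alternatives, with adjusted p values from 0.0194 to 0.210, and the difference ran from 0.36 to 0.52. It was lost with library sums set equal, without a filter, with both groups fitted alone, without Con-FMT liver 2, without A10-FMT liver 1 or 2, and with the third Con and AOS libraries left out (adjusted p 0.0799). In HFD against Con the difference was −0.42 (SE 0.10), with an adjusted p of 0.0896, and in Con-FMT against HFD it was −0.33, with an unadjusted p of 0.00520 and an adjusted p of 0.578. The F test called Cyp1a2 with an adjusted p of 0.00236 and did so in all 24 alternatives, with 0.0225 when the third Con and AOS libraries were left out. Its close relative Cyp1a1 lay between 0.1 and 0.82 RPKM.

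Por, the single NADPH-P450 reductase of the endoplasmic reticulum, was higher in A10-FMT than in HFD and in Con-FMT. It was 101, 152 and 63.4 RPKM in A10-FMT, and 71.8, 62.5 and 90.1 in HFD+AOS. In HFD it was 21.5, 51.0 and 51.0, with liver 1 at the lowest value of all 18, and in Con-FMT 35.5, 45.3 and 35.4. The regular-diet groups were close together, with 37.6, 43.6 and 40.9 in Con and 46.4, 44.3 and 45.4 in AOS. Every A10-FMT liver and every HFD+AOS liver lay above every liver of the other 4 groups. In order of means, AOS and HFD+AOS were the only neighbours that did not overlap. AOS livers also lay above Con livers, by 0.16 log2 with an adjusted p of 0.841.

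Por rose by 1.35 log2 (SE 0.30) in A10-FMT against HFD, with an adjusted p of 0.0134 by limma, and the mean RPKM was 105 ± 44.3 against 41.2 ± 17.1 (SD, n = 3), with a fold of 2.54 on RPKM + 1. The call was kept in 10 of 13 alternatives, with differences from 0.94 to 1.67 and adjusted p values from 0.00214 to 0.171, and was lost without A10-FMT liver 1 or 2 and with the HFD and A10-FMT groups fitted alone. The adjusted p was 0.0329 with the third Con and AOS libraries left out. In A10-FMT against Con-FMT, Por rose by 1.34 (SE 0.30), with an adjusted p of 0.0309, from 38.7 ± 5.68 RPKM. That call was kept in 5 of 13 alternatives, with differences from 1.04 to 1.66 and adjusted p values from 0.00371 to 0.189. It was lost without a filter, with both groups fitted alone, without any 1 of the Con-FMT livers, without A10-FMT liver 1 or 2, and with the third Con and AOS libraries left out (adjusted p 0.0735). In HFD+AOS against HFD the difference was 0.93 (SE 0.30), with an adjusted p of 0.0605, and it was 0.53 without HFD liver 1, the low one.

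Alas1, the rate-limiting enzyme of heme synthesis in the liver, spread more widely between mice of the same group than any other of the 7 genes. It was 29.8, 11.98 and 99.7 RPKM in HFD+AOS, an 8.32-fold range among 3 livers. In Con it was 24.9, 82.1 and 50.6, in AOS 17.8, 52.9 and 39.7, in HFD 22.6, 75.7 and 64.8, and in Con-FMT 32.6, 61.8 and 109. The A10-FMT livers, at 95.3, 122 and 129, were the exception, with a coefficient of variation of 15.5% against 48.1% to 98.3% in the other groups. Each A10-FMT liver lay above each HFD liver, and the means were 115 ± 17.8 and 54.4 ± 28.0 RPKM (SD, n = 3). The difference of 1.23 log2 had an SE of 0.66 and an adjusted p of 0.271 by limma, and did not pass the threshold. No comparison called Alas1, and all neighbours in the order of its means overlapped. The within-group SD of Alas1 was 0.93 log2, against 0.41 for Por.

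The members were compared with each other over the 18 livers, where shared group means enter each correlation. Nr1i3 and Por were the closest pair (Pearson's r 0.80, Spearman's rho 0.67). After the group means were taken out r was 0.50, below 4 other pairs, Arnt and Alas1 (0.68), Cyp1a2 and Alas1 (0.62), Nr1i2 and Nr1i3 (0.58), and Ahr and Por (0.55). With the group means left in, r for Nr1i3 and Por was 0.79 over 16 livers, without the third Con and AOS libraries, beside 0.80 over all 18. Over all 18 livers Por and Alas1 followed with r 0.44, and Nr1i3 and Alas1 had r 0.23. The 6 livers of HFD+AOS and A10-FMT hold the highest Por values.

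**Figure D3:**
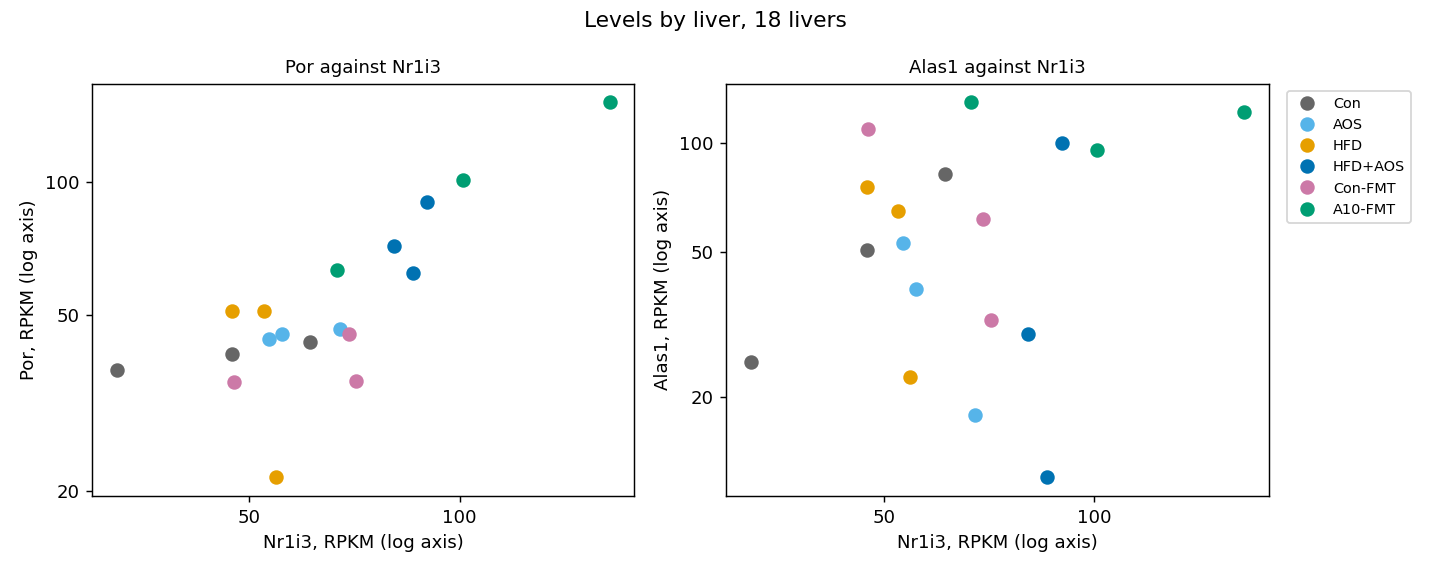
Por (left) and Alas1 (right) against Nr1i3 in 18 livers, RPKM on log axes, coloured by group. HFD+AOS and A10-FMT livers lie at the upper right for Por, where HFD liver 1 is lowest (21.5), while Alas1, from 11.98 to 129, follows Nr1i3 less closely (Pearson's r 0.23 against 0.80 for Por).

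For each member, the tested gene with the highest Pearson's r over the 18 livers was sought. Por was most like Nampt, an NAD synthesis enzyme (r 0.94, rho 0.94, and 0.88 without the 2 livers farthest from the median of Por), Maco1 (0.90) and Tk1 (0.90). After Tomm40l, Nr1i3 was most like Tnks1bp1 (0.93) and Bnip3 (0.92). Alas1 was most like Mavs (0.82), Pfkfb3 (0.82) and Amd1 (0.81), and here r after removal of group means stayed at 0.85, 0.76 and 0.71. Cyp1a2 was most like Ces2c (0.80), a carboxylesterase, with 0.26 after the group means were removed. The closest genes to Nr1i2, Ahr and Arnt were Arv1 (0.79), Klhdc2 (0.79) and Parp3 (0.82), and for Ahr the value fell to 0.53 without its 2 farthest livers.

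The comparison in which Nr1i3 and Por rose, A10-FMT against HFD, was also one in which the clock genes changed. Of the 16 clock and PAR bZIP genes tested, 14 were called in HFD+AOS against HFD (5 lower, 9 higher) and 15 when A10-FMT was set against HFD (5 lower, 10 higher), with medians of 0.94 and 0.96 log2 against −0.01 and −0.03 over all genes. These comparisons called 8.75% and 6.60% of all genes. Both counts include Bhlhe41, which reached 1 RPKM only in the HFD+AOS livers and A10-FMT liver 1. It passed the filter through groups where it is high, so its calls are not read as a rise. In A10-FMT against Con-FMT 7 were called (3 higher, 4 lower), where 1.68% of all genes were. In AOS against Con 1 was called (0.133% of all genes), and in HFD against Con and Con-FMT against HFD 0 (0.381% and 0.00952%). The 7 became 0 with both groups fitted alone, and the 1 became 0 with the third Con and AOS libraries left out. At an unadjusted p under 0.05, HFD against Con and Con-FMT against HFD held 2 and 10 of the 16 by limma, where 15.4% and 6.63% of all genes passed. Dbp, a PAR bZIP activator, was 112, 88.9 and 97.8 RPKM in HFD+AOS and 127, 70.8 and 49.2 in A10-FMT, against 0.56, 0.27 and 0.59 in HFD. In Con-FMT Dbp was 16.5, 3.24 and 22.6. Arntl, a core activator of the clock, went the other way, at 1.18 to 1.32 RPKM in HFD+AOS, 0.69 to 2.41 in A10-FMT and 12.1 to 14.6 in HFD.

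Within A10-FMT the livers were not ordered alike. Liver 1 had the most Dbp (127 RPKM) and liver 2 the most Nr1i3 (164) and Por (152), while liver 3 had the least of each and the most Alas1 (129). The part of the clock genes in the differences of Nr1i3 and Por was not tested, and the hour at which each liver was taken is not given in the sources used here.

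**Figure D4:**
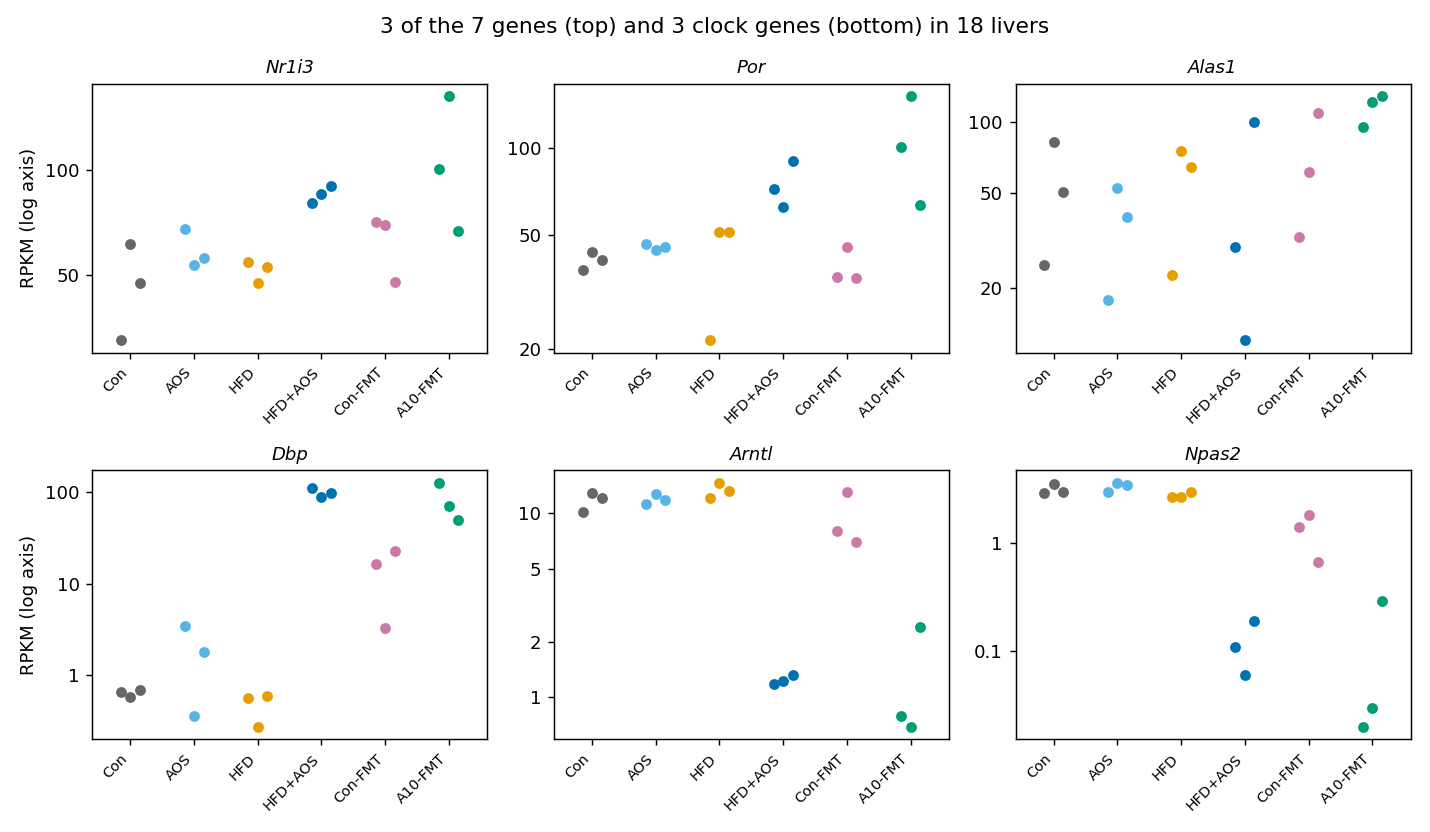
RPKM on log axes of Nr1i3, Por and Alas1 (top) and of the clock genes Dbp, Arntl and Npas2 (bottom), with points for the livers of each group. Dbp is 49.2 or more in each HFD+AOS and A10-FMT liver and 0.59 or less in each HFD liver, Arntl and Npas2 are lowest in the same 6 livers, and Alas1 does not separate them.

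Like Alas1, the other genes of heme synthesis were not called between 2 groups. Of 13 tested, which were Alas2, the enzymes from Alad to Fech and transporters of the pathway, 0 were called in each of the 6 comparisons of groups, with between 1 and 2 at an unadjusted p under 0.05, and their median was 0.11 log2 in A10-FMT against HFD. Over all genes 0.00952% to 8.75% were called in these comparisons and 6.63% to 26.2% passed unadjusted. With 13 genes, 0 calls cannot be told from these shares. Fech, the enzyme that inserts iron, was the only 1 of the 13 called by the F test (adjusted p 0.0118), which called 14.8% of all genes. It was at 35.7, 41.9 and 40.3 RPKM in Con and between 45.9 and 56.2 in all other livers. It differed by 0.31 (SE 0.08) in HFD against Con, with an adjusted p of 0.0976, and by 0.37 in AOS against Con, with an adjusted p of 0.0710. The F test did not call Fech with the third Con and AOS libraries left out. Of 8 genes of heme breakdown and binding, none was called in any test. With 8 genes, this cannot be told from the shares over all genes either. Between 2 groups haptoglobin (Hp), the plasma protein that binds free hemoglobin, came nearest. It differed by −1.005 log2 in HFD against Con, with an adjusted p of 0.112 by limma. Hp was 4812, 1711 and 3654 RPKM in Con and 1584, 1637 and 1436 in HFD. The difference thus rests on Con livers 1 and 3, and liver 3 is a library that stood apart.

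Of the 8 further genes of electron transfer to P450, Fdx1, the ferredoxin of mitochondrial P450 enzymes, rose in A10-FMT and in HFD+AOS against HFD, where 6.60% and 8.75% of all genes were called. It was 102.8, 112 and 75.4 RPKM in A10-FMT, 90.2, 83.4 and 96.3 in HFD+AOS, and 66.2, 66.8 and 57.9 in HFD. The difference was 0.58 log2 (SE 0.14) in A10-FMT against HFD, with an adjusted p of 0.0220, and 0.49 in HFD+AOS against HFD, with an adjusted p of 0.0401, by limma. The A10-FMT call was kept in 8 of 13 alternatives and lost with both groups fitted alone and without HFD liver 2 or 3 or A10-FMT liver 1 or 2. The HFD+AOS call was kept in 4 of 13, and was lost, among others, with library sums set equal, with the third Con and AOS libraries left out, and without HFD liver 2 or 3 or any 1 of the HFD+AOS livers. Cyb5b, an outer mitochondrial cytochrome b5, was called by the F test (adjusted p 0.0386), though not with the third Con and AOS libraries left out. No other gene of this list was called in any test.

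Of 17 target genes of CAR and PXR tested, 1 was called in A10-FMT against HFD, Cyp3a44, which was lower. This is near the share over all genes (6.60%), of which 275 were called higher and 418 lower, and the median of the list was −0.43 log2 against −0.03 over all genes. In HFD+AOS against HFD 1 was called (8.75% of all genes), Cyp3a13, also lower, with a list median of −0.30. In Con-FMT against HFD none was, with a median of −0.37, so all 3 comparisons with HFD had medians below that of all genes. In A10-FMT against Con-FMT none was called, with a median of 0.05. The F test over the 6 groups called 7 of the 17, counting Cyp2c55, where it called 14.8% of all genes. At an unadjusted p under 0.05 it held 12 of the 17, where 32.6% of all genes passed. Which of these F calls remain with the third Con and AOS libraries left out is not given here. HFD liver 1 held the least Cyp3a11 of its group. Without it, the 3 comparisons with HFD called 5 (A10-FMT), 5 (HFD+AOS) and 2 (Con-FMT), all lower. These were the largest counts when a library was left out, and the smallest was 0 in each comparison. Over all genes, Con-FMT against HFD called 13 without HFD liver 1 and 1 with it. For A10-FMT and HFD+AOS, the number of all genes called without this liver is not given here. Whether 5 of the 17 exceeds the share over all genes thus cannot be told. Cyp3a44 was 0.32, 7.98 and 8.37 RPKM in HFD and 0.17, 0.20 and 0.13 in A10-FMT, and HFD liver 1 lay near the A10-FMT livers. The pairwise calls of Cyp3a44 and Cyp3a13 were both lost with the third Con and AOS libraries left out, and reads of near-identical Cyp3a genes may have been shared.

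Cyp3a11, a main PXR target, had the smallest adjusted p of this list in the F test (0.000336). It ran from 1709.56 to 2584.95 RPKM in Con and from 2759.41 to 3084.52 in AOS, against 235 to 1134 in HFD, 162 to 631 in HFD+AOS, 143 to 313 in Con-FMT and 152 to 292 in A10-FMT. Each regular-diet liver thus lay above each liver of an HFD group. The difference between A10-FMT and HFD was −1.70 log2 (SE 0.53), with an adjusted p of 0.0624. Cyp2b10, the classical CAR target, was named after its values were seen. It averaged 0.0367 ± 0.0351 RPKM in A10-FMT and 0.897 ± 1.04 in HFD (SD, n = 3), a difference of −0.74 log2 with an adjusted p of 0.255. The F test called Cyp2b10 (adjusted p 0.0155), and its highest mean was in AOS, at 3.56 ± 2.59 RPKM. Abcc2, an exporter of conjugates, was 20.01, 28.8 and 24.0 RPKM in Con and 34.6, 33.7 and 38.0 in HFD. It rose by 0.54 log2 (SE 0.11) with an adjusted p of 0.0414, a call kept in 4 of 13 alternatives and lost with the third Con and AOS libraries left out, without Con liver 1 or 3, and without any 1 of the HFD livers. Cyp2c55 stayed at or under 1.53 RPKM and reached 1 RPKM in the 3 AOS livers and Con liver 2 only, so it passed the filter through its highest group and its own test is not read.

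Of 8 Ahr target genes, 4 passed the filter on low values. Cyp1a1, Cyp1b1, Ahrr and Aldh3a1 did not, with at most 0.82 RPKM in any liver. Ugt1a6b, a glucuronosyltransferase, rose by 0.26 log2 (SE 0.07) in A10-FMT against HFD, with an adjusted p of 0.0392, and by 0.24 in HFD+AOS against HFD, with an adjusted p of 0.0435. No other of the 4 was called between 2 groups, and these comparisons called 6.60% and 8.75% of all genes. The Ugt1a6b calls were kept in 6 and 4 of 13 alternatives. Both were lost with library sums set equal, with the third Con and AOS libraries left out, and without HFD liver 2 or 3, and its exons may share reads with other Ugt1a genes. Ugt1a6a was called by the F test (adjusted p 0.00969), a call lost with the third Con and AOS libraries left out, and Nqo1 and Tiparp were called in no test.

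**Figure D5:**
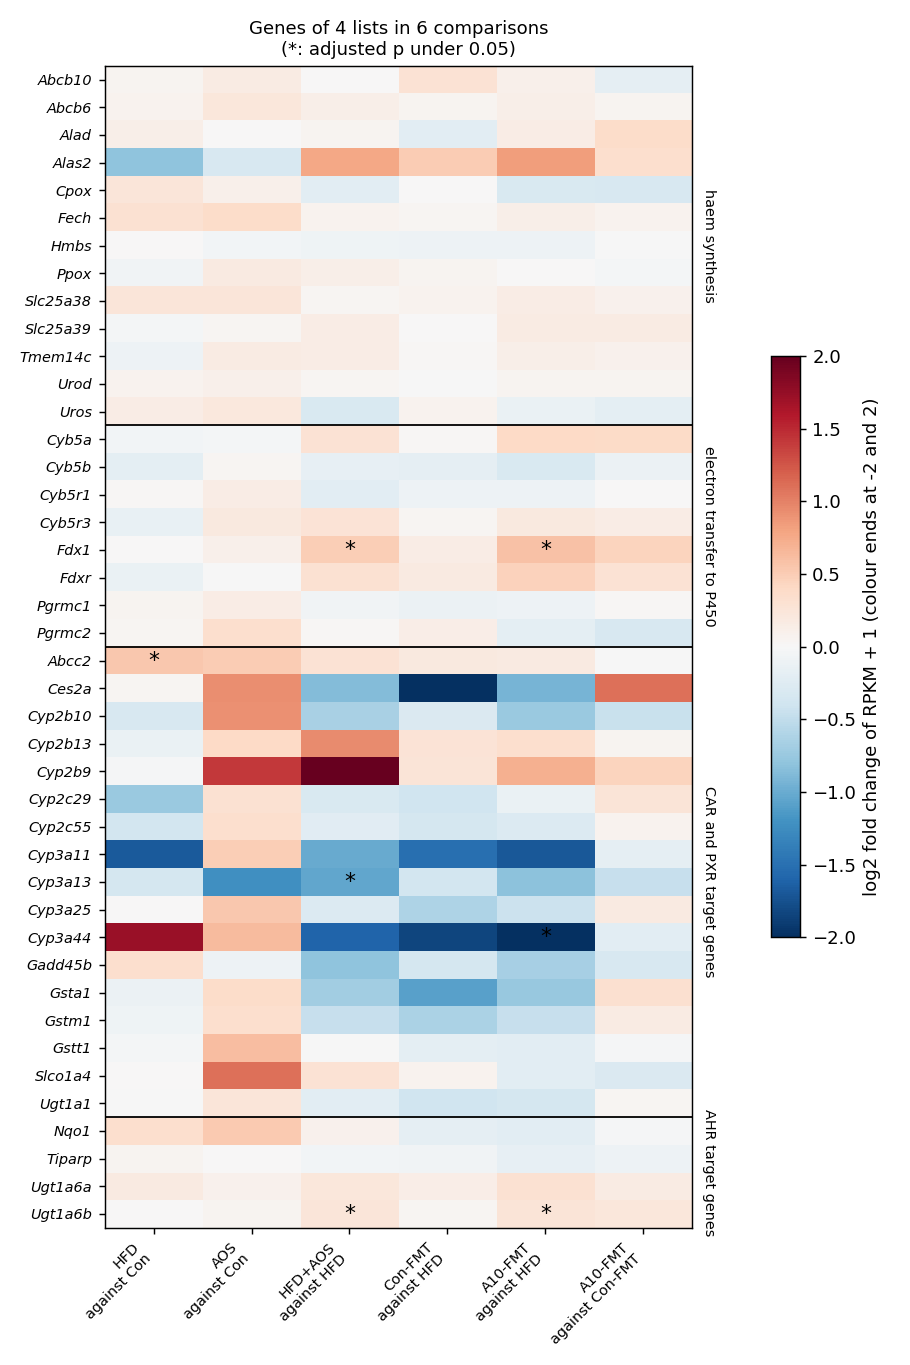
Differences of log2(RPKM + 1) (colour, ending at −2 and 2) for the tested genes of 4 lists in 6 comparisons of groups, with stars at an adjusted p under 0.05. Stars are few: Abcc2 in HFD against Con, and Fdx1, Ugt1a6b, Cyp3a13 and Cyp3a44 in the comparisons of HFD+AOS or A10-FMT with HFD.

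Among 14 tested partners and coregulators of the receptors, 3 were called in HFD+AOS against HFD, all lower, where 8.75% of all genes were called. Hsp90aa1, which holds Ahr in the cytoplasm, was 47.8, 49.9 and 71.2 RPKM there against 91.1, 187 and 190, a difference of −1.40 log2 (SE 0.31) with an adjusted p of 0.0133 by limma. Hsp90ab1 fell by 0.67 (adjusted p 0.0364), and Hnf4a, a factor of hepatocyte identity, fell by 0.26 (adjusted p 0.0473). In A10-FMT against HFD, where 6.60% of all genes were called, the corepressor Ncor1 alone was called, at −0.33 (adjusted p 0.0375). The calls were kept in 10 (Hsp90aa1), 5 (Hsp90ab1) and 4 (Ncor1) of 13 alternatives, and Hnf4a was not followed through them. Hsp90aa1 was lost without HFD liver 2 or 3 or HFD+AOS liver 1. With the third Con and AOS libraries left out, 1 gene was called in HFD+AOS against HFD and 0 in A10-FMT against HFD, and the F test, which had called Hsp90aa1 and 2 others, called 0.

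Cyp1a2 and other P450 genes are zoned along the liver lobule, and markers of both zones were read beside them. Of 8 pericentral genes, Cyp2e1 and Glul rose in HFD+AOS against HFD, and Cyp2e1 rose and Axin2 fell in A10-FMT against HFD. These comparisons called 8.75% and 6.60% of all genes. Cyp2e1 was 5354, 5937 and 4343 RPKM in A10-FMT and 3364, 3169 and 3044 in HFD, a rise of 0.70 log2 (SE 0.14) with an adjusted p of 0.00786. The Cyp2e1 calls were each kept in 12 of 13 alternatives, lost without HFD liver 3 (HFD+AOS) or with both groups fitted alone (A10-FMT). Glul was kept in 5 of 13 and Axin2 in 9 of 13. Both were lost with the third Con and AOS libraries left out, with the compared groups alone and without HFD liver 2, Glul also with library sums set equal and without HFD liver 3 or any 1 of the HFD+AOS livers, and Axin2 without A10-FMT liver 1. Of 8 periportal genes, none was called in these comparisons, and Pck1 and Hal were called by the F test (adjusted p 0.00969 and 0.0492), both calls lost with the third Con and AOS libraries left out.

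The summed RPKM of 5 hepatocyte markers lay between 50732 and 71713 in all livers, and 2 of these markers were called in some test. In A10-FMT it was 58134 to 61780, and in HFD 59674 to 68602. The 7 markers of Kupffer cells and macrophages summed to 50.3 to 61.5 in A10-FMT, 47.3 to 65.9 in Con-FMT and 46.9 to 103 in HFD, and none was called. The 6 stellate cell markers, 2 of them called in some test, summed to 96.7 to 104 in A10-FMT and 86.8 to 101 in HFD. The 5 endothelial markers, 1 of them called in some test, summed to 34.7 to 44.6. The 4 cholangiocyte markers, also with 1 called, summed to 2.34 to 5.64. Among these Sox9, named after its values were seen, was 3.56, 2.65 and 2.53 RPKM in HFD, 1.33, 1.05 and 1.03 in HFD+AOS and 0.91, 1.06 and 0.76 in A10-FMT. The rest of the list, Krt19, Krt7 and Epcam, overlapped between these groups. Krt19, for example, was 1.17, 0.64 and 1.10 in HFD and 1.84, 0.59 and 1.42 in A10-FMT. Sox9 thus does not stand for the cholangiocyte markers. The 6 lymphocyte markers, none called, summed to 1.75 to 6.73. The 6 erythroid markers, which include the erythroid enzyme Alas2, ranged from 823 to 2958 with overlap between A10-FMT (1237 to 2958) and HFD (823 to 2698). No marker was at 0 in all livers. The F test alone called 14.8% of all genes, and the share called in at least 1 of the 8 tests is not given here. The counts of called markers are thus not read as change or steadiness of a cell type. The part of any cell type in the differences of the 7 genes was not tested.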

How the data were processed

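Total liver RNA was sequenced on an Illumina HiSeq instrument. By the paper's methods the authors mapped reads to reference genes with SOAPaligner, with settings that report every hit of a read, and the deposited values are RPKM per gene symbol, rounded to 2 decimals. The submitters' processing notes name Bowtie 0.12.2 and mm10, without a role. Samples were grouped by their titles. No further scaling was applied to log2(RPKM + 1). The filter on low values asked for 3 or more libraries with an RPKM of 1 or more. All 18 libraries entered a limma 3.58.1 model of group means (R 4.3.3, functions lmFit and eBayes, the latter with its trend option), from which 6 comparisons, 1 interaction and an F test were adjusted after Benjamini and Hochberg over all 10507 genes. DEGseq, named in the paper, needs read numbers and was not run. The fit was tested on simulated data. Tables and figures were made in Python 3.11.15 with pandas 2.3.3, numpy 2.4.6 and matplotlib 3.10.9.

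The 7 genes and the 9 gene lists were chosen with earlier results of these data known. Named are the 7 genes, up to 3 called genes of each list by smallest adjusted p (otherwise the gene with the smallest p), and the 3 genes most like each of the 7. Cyp2b10, Cyp3a13, Cyp3a44, Hnf4a, Cyp1a1, Arnt2 and the other genes under the filter were named after their values were seen. Alternatives were each library's median or sum set equal, a pseudocount of 0.1, no filter, the replicate number as a block, the compared groups alone, each library left out in turn, and, chosen after seeing the data, the third Con and AOS libraries left out.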

Additional observations from a re-analysis of the deposited data

Results flagged for a closer look

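None of the 7 genes had an AOS effect that differed between the diets after adjustment. Of the list genes named, 3 clock genes did, by the interaction term of limma. At most 3 genes of a list were named, and this term called 7 of the 16 clock and PAR bZIP genes (3 higher, 4 lower). It called 0.504% of all genes. The AOS effect on the HFD minus that on the regular diet was 5.45 log2 (SE 0.72) for Dbp, with an adjusted p of 0.00137. It was −2.70 (SE 0.31) for Arntl, with an adjusted p of 0.000698. It was −1.81 (SE 0.21) for Npas2, with an adjusted p of 0.000698. On the HFD alone the effects were 6.09, −2.67 and −1.74, and on the regular diet 0.64, 0.02 and 0.07. Among the same 7 genes, the corresponding difference was 0.36 for Nr1i3 (adjusted p 0.669) and 0.77 for Por (adjusted p 0.407). Groups of 3 livers are too small to mark a single liver as far from its group.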

How the results depend on the processing

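The calls of the 7 genes depended on small margins. No call between 2 groups changed direction under any of its 13 alternatives. In A10-FMT against HFD the number of the 7 genes called was 1 (Por) without a filter and 1 (Por) with the third Con and AOS libraries left out, 0 with these groups fitted alone, and 0 to 2 when a library was left out. In A10-FMT against Con-FMT it was 3 (Nr1i2, Cyp1a2 and Por) with library medians set equal, 1 (Por) with library sums set equal, 0 without a filter, 0 with the third Con and AOS libraries left out, 0 with these groups alone, and 0 to 3 when a library was left out. In HFD+AOS against HFD it was 1 (Por) with library medians set equal and 1 (Nr1i3) with these groups alone. The F test called 2 (Cyp1a2 and Por) without a filter, 1 (Cyp1a2) with the third Con and AOS libraries left out, and 2 to 4 when a library was left out. The cause of these shifts was not tested.

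Small differences that were not called changed sign. With medians set equal these were Alas1 (−0.020) in HFD against Con, Arnt (−0.0029) in AOS against Con, and Arnt (0.080) and Alas1 (0.038) in the AOS effect on the HFD minus that on the regular diet. With sums set equal they were Por (0.0032) in HFD against Con, and Ahr (−0.00790) and Arnt (−0.072) in A10-FMT against Con-FMT. With the third Con and AOS libraries left out, Alas1 was 0.021 in that difference of AOS effects. When a library was left out, HFD against Con ran from −0.066 to 0.38 for Nr1i3, −0.28 to 0.32 for Por and −0.41 to 0.56 for Alas1. HFD+AOS against HFD ran from −0.38 to 0.021 for Ahr and −1.30 to 0.18 for Alas1. Con-FMT against HFD ran from −0.16 to 0.023 for Arnt, −0.40 to 0.21 for Por and −0.21 to 0.76 for Alas1. A10-FMT against Con-FMT ran from −0.033 to 0.24 for Ahr and −0.078 to 0.10 for Arnt, and the difference of AOS effects from −0.062 to 0.11 for Arnt and −0.82 to 0.66 for Alas1.

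Replicate numbers did not pair the livers: correlations of same-numbered deviations ran from −0.177 to 0.225, and 0 comparisons had all above 0.1. With the replicate block, 2 of the 7 genes were called in A10-FMT against HFD (Nr1i3 and Por), 2 in A10-FMT against Con-FMT (Cyp1a2 and Por), 0 in the other comparisons and 3 by the F test, which lost Nr1i2. Over all genes the block called 5 in HFD against Con and 2 in Con-FMT against HFD.

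Counts over all genes moved more. With the third Con and AOS libraries left out, HFD against Con called 0 against 40 and AOS against Con 0 against 14 by limma (1076 and 920 at an unadjusted p under 0.05), HFD+AOS against HFD 496 against 919, A10-FMT against HFD 395 against 693, A10-FMT against Con-FMT 82 against 177, the difference of AOS effects 15 against 53 and the F test 523 against 1550. With the compared groups alone the first 6 of these were 2, 41, 435, 78, 4 and 137, and Con-FMT against HFD called 2 against 1. When a library was left out, the counts ran from 0 to 178 in HFD against Con, 0 to 132 in AOS against Con, 320 to 1282 in HFD+AOS against HFD, 1 to 13 in Con-FMT against HFD, 271 to 1218 in A10-FMT against HFD, 51 to 564 in A10-FMT against Con-FMT, 29 to 186 in the difference of AOS effects and 897 to 1854 in the F test, and the shares set beside the 7 genes move with them. Without a filter HFD against Con called 26 and A10-FMT against Con-FMT 100. The split of calls in A10-FMT against HFD was 275 higher and 418 lower, 603 and 467 with medians set equal, and 142 and 497 with sums set equal. The clock list held 12 calls against 15 in A10-FMT against HFD and 13 against 14 in HFD+AOS against HFD with the third Con and AOS libraries left out, and in A10-FMT against Con-FMT 0 against 7 with these groups alone. The 15 and the 14 include Bhlhe41, which passed the filter through groups where it is high. Without read numbers, how far depth limits the low genes could not be computed.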
